A study of Rattus norvegicus with 12 samples.

Results

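Transcripts of 9 genes known from mast cells were followed in mammary glands of rats at PND21. The genes were Cpa3, Kit, Fcer1a, Ms4a2, Tpsab1, Tpsb2, Cma1, Hdc and Gata2, taken by name from a table of 16511 genes listed by Entrez identifier. All 9 had a row, and all 9 passed the low-count filter that left 9382 genes for testing. The 12 libraries were total RNA of snap-frozen whole glands of Rattus norvegicus, 1 gland per litter. Of these, 6 came from offspring with prenatal exposure to a high fat butter diet (HFB) and 6 from offspring with prenatal exposure to a control AIN diet (CTL). Tissue and groups follow the labels. The study that cites the series describes its RNA-seq with other groups and in microdissected epithelium, and this difference was not settled. The rat strain of the animal model is Sprague-Dawley by the methods of that study. The sources differ on when exposure ended, so the exposure window of these glands is not stated more closely here. The labels name neither the sex of the offspring nor any agent beside the diet. A whole gland holds fat, stroma, vessels, nerve, blood and epithelium.

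Mast cells are tissue-resident immune cells of the haematopoietic lineage that lie in connective tissue, along vessels and in adipose tissue. They store histamine, proteases and heparin in granules and release them when antigen cross-links IgE on their surface receptor. They mature in the tissue under stem cell factor, the ligand of Kit, and are present in the stroma of the mammary gland. Several of the 9 genes are also used by other cells: Kit by melanocytes, interstitial cells of Cajal and some epithelial cells, Fcer1a, Ms4a2 and Hdc by basophils, and Gata2 by endothelial cells and blood progenitors.

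Total counts ranged from 2320267 to 2760871 in the HFB libraries (median 2660268) and from 2403464 to 2944680 in the CTL libraries (median 2537563.5). Levels are CPM values after TMM normalisation, which puts libraries of unequal depth on a shared scale. They are not divided by transcript length, so the genes called highest or leading in a list below are so by median CPM alone, which does not mean more transcripts than another gene. A count of 3, taken as the smallest detectable level, equals 0.949 to 1.30 CPM depending on the library, and this limit covers counting error only. In all libraries 2954 genes had 0 counts, among them Mcl1, which nearly every cell uses. A gene with 0 counts throughout therefore cannot be told apart from one that was not counted. Replicate numbers 1 to 6 only name the libraries of a diet. No pair of libraries from 1 diet agreed within sampling noise (chi-square per degree of freedom at least 6.69 over 30 pairs).

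The libraries HFB 6 and CTL 6 stood apart from the other 10, and results that rest on them are given with and without them. Summed CPM of 12 lymphoid markers was 1256 in HFB 6 and 1415 in CTL 6, against 30.0 to 538 in the other libraries. Within that list Cd3d reached 219 and 150 CPM and Cd79b 263 and 231 CPM, where the other 10 libraries had at most 22.2 and 21.4 CPM. Summed CPM of 8 blood endothelial markers was 969 and 907, against 250 to 382. Lower sums were found for 10 adipocyte markers, at 23588 and 17446 CPM against 30660 to 41256, and for 10 markers of adipose stroma, at 24459 and 23204 CPM against 32849 to 53262. The leading genes of these lists were Cd4 and Ptprc, Egfl7 and Pecam1, Fabp4 and Adipoq, and Col3a1 and Col1a1. Some genes did not follow their list: Cd4 was 4.81 CPM in HFB 6 and 23.9 CPM in CTL 6 against 9.49 to 45.2 CPM elsewhere, and Cdh5 was 2.81 CPM in HFB 6 against 5.42 to 47.2 CPM. The adipocyte genes Cfd and Retn were 4062 and 1503 CPM in HFB 6, above their medians of 2608 and 1271 CPM in the other 10. Summed CPM of 7 peripheral nerve markers was also lower, at 1207 and 1397 against 2177 to 3214, and that of 11 epithelial markers higher, at 772 and 780 against 127 to 681. Among the epithelial markers, Epcam was 51.3 and 77.8 CPM against 13.6 to 96.8 CPM in the other 10. Cdh1 was 38.1 and 50.7 CPM against 10.7 to 64.2 CPM, and Tp63 also lay within the range of the others. For 5 lymphatic endothelial markers CTL 6 had the lowest sum, 110 CPM against 165 to 247, and HFB 6 lay within that range at 174 CPM. In the sums, these 2 glands, 1 in each diet, had more RNA of lymphoid, blood vessel and epithelial genes and less of fat, stroma and nerve genes.

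**Figure D1:**
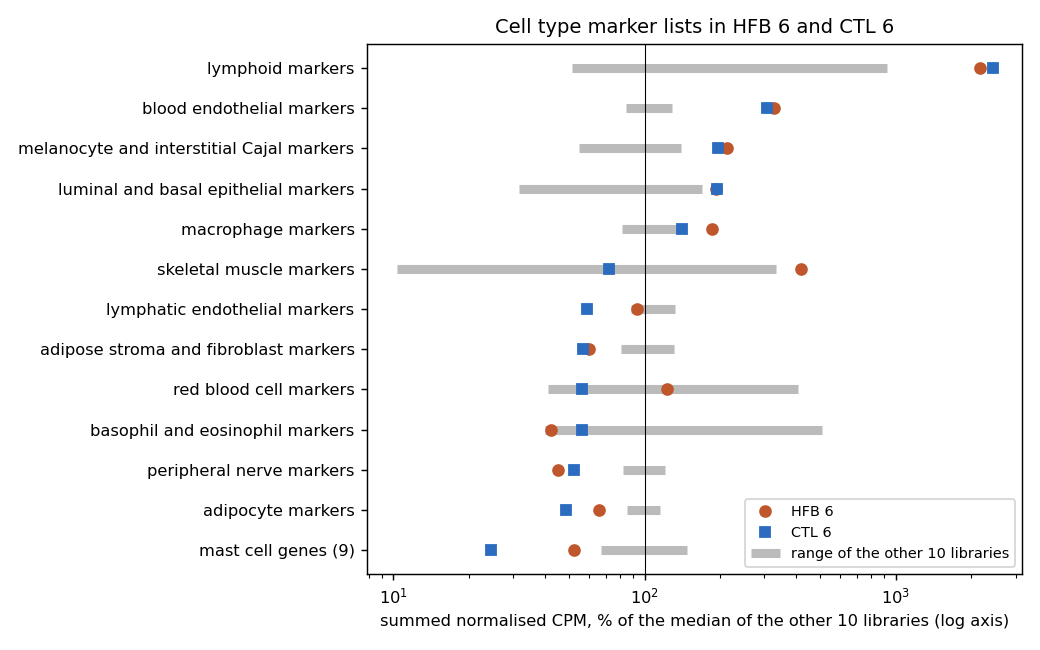
Summed normalised CPM of each marker list in HFB 6 (circles) and CTL 6 (squares), as a percentage of the median of the other 10 libraries on a log axis. Grey bars span the other 10 libraries; the lymphoid list lies at 2156% and 2429% and the 9 mast cell genes at 52.3% and 24.4%.

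The granule carboxypeptidase Cpa3 (Entrez 54242), which is stored with heparin in mast cell granules, ranged from 19.2 to 141 CPM in HFB (median 86.8) and from 13.4 to 175 CPM in CTL (median 142). Its lowest libraries were HFB 6 and CTL 6, at 14.1% and 9.83% of the median of the other 10. Among those 10, Cpa3 was 76.4 to 141 CPM in HFB and 117 to 175 CPM in CTL, so that HFB 2, 3 and 4 lay under every CTL library and HFB 1 and 5 lay within the CTL range. In bulk tissue, fewer mast cells and less RNA per mast cell cannot be told apart. The part of the lymphoid, endothelial, adipocyte and stroma markers in the low values of HFB 6 and CTL 6 was not tested.

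The chymase Cma1 (Entrez 25627), a chymotrypsin-like granule protease, ranged from 124 to 330 CPM in HFB (median 149) and from 46.8 to 219 CPM in CTL (median 169). HFB 5 was the highest library and CTL 6 the lowest, and the diets overlapped. HFB 6, where Cpa3 was at 14.1% of the other libraries, held Cma1 at 73.5%. The 2 granule proteases therefore did not fall to the same extent in that gland.

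The tryptases Tpsab1 (Entrez 54271) and Tpsb2 (Entrez 29268) are trypsin-like granule proteases and close copies of each other, so reads shared between them could have been split or lost and their separate levels are uncertain. Tpsab1 ranged from 9.36 to 54.2 CPM in HFB (median 26.0) and from 8.10 to 45.1 CPM in CTL (median 35.2). Tpsb2 ranged from 23.8 to 75.0 CPM in HFB (median 44.7) and from 14.8 to 78.4 CPM in CTL (median 46.2). For both, HFB 3 was the lowest HFB library and CTL 6 the lowest of all, while HFB 6 held 76.4% and 78.5% of the median of the other 10. The diets overlapped in both genes.

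Hdc (Entrez 24443), the enzyme that makes histamine from histidine, ranged from 10.8 to 21.7 CPM in HFB (median 17.7) and from 4.23 to 26.9 CPM in CTL (median 16.7). CTL 6 and HFB 6 were its lowest libraries, and the diets overlapped. In the high-affinity IgE receptor, the IgE-binding alpha chain Fcer1a (Entrez 25047) ranged from 2.34 to 6.96 CPM in HFB (median 4.04) and from 0.352 to 9.88 CPM in CTL (median 4.55). The value of CTL 6 stood for 1 count and lay under the detectable level, and the diets overlapped. The signal-amplifying beta chain Ms4a2 (Entrez 25316) ranged from 8.02 to 15.9 CPM in HFB (median 14.8) and from 2.11 to 33.3 CPM in CTL (median 17.7). Each HFB value lay under the CTL median, though CTL 1 and CTL 6 fell within or under the HFB range.

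Kit (Entrez 64030), the receptor for stem cell factor, had 0 counts in HFB 6 and ranged up to 16.5 CPM in HFB (median 4.46), against 3.17 to 19.8 CPM in CTL (median 11.05). The 0 counts in HFB 6 allow a level of up to 1.20 CPM. Its 3 lowest libraries were HFB 6, HFB 5 at 1.93 CPM and CTL 6, and the diets overlapped. HFB 5, among the lowest for Kit, was the highest of the 6 HFB libraries for Cpa3, Fcer1a, Tpsab1, Tpsb2, Cma1 and Hdc. Gata2 (Entrez 25159), a zinc finger transcription factor needed for mast cell development, ranged from 4.41 to 18.9 CPM in HFB (median 13.2) and from 11.9 to 19.4 CPM in CTL (median 16.6). HFB 6 was its lowest library, whereas CTL 6 held 111% of the median of the other 10, the only one of the 9 genes that was not reduced there. Over all 9 genes, CTL 6 was the lowest library for 7 and HFB 6 was among the 2 lowest for 6.

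**Figure D2:**
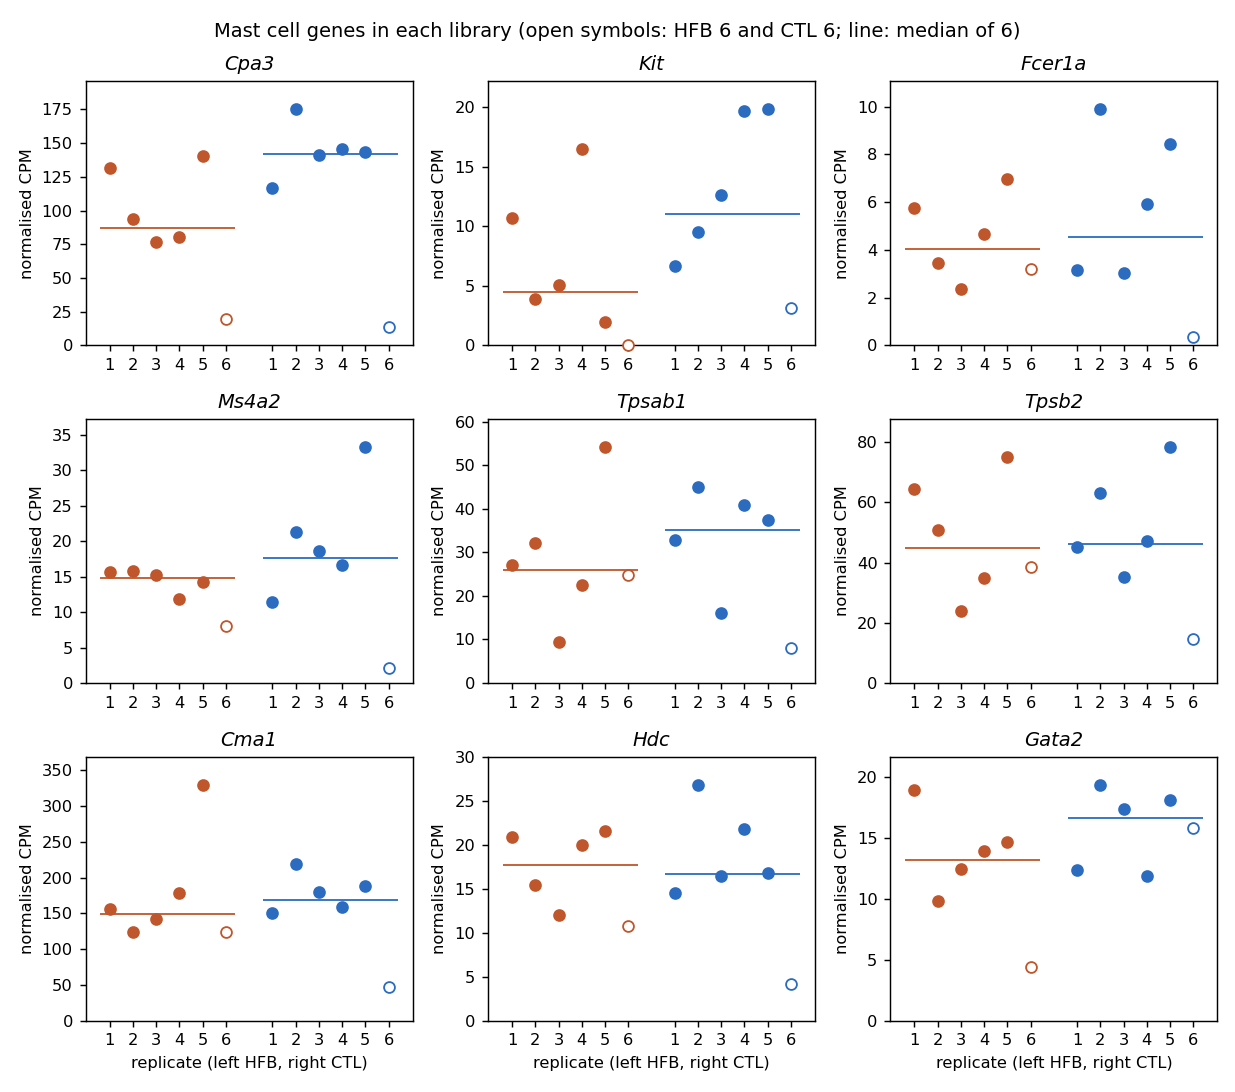
Normalised CPM of each mast cell gene in the 12 libraries, HFB on the left and CTL on the right of each panel, with a line at the median of each diet. Open symbols mark HFB 6 and CTL 6; CTL 6 is the lowest library for 7 of the 9 genes, and the diets overlap in every panel.

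Whether the diet of the dam changed these transcripts was asked with 6 libraries against 6. None of the 9 genes passed an adjusted p of 0.05 in edgeR's quasi-likelihood test, where 0.0% of the 9382 genes tested did, and 0 of 9 passed an unadjusted p of 0.05, where 2.34% of all genes did (220 genes). DESeq2 gave 0 genes at the adjusted threshold and 271 at the unadjusted one, with 0 of the 9 among them. Limma voom gave 0 and 613, with Cpa3 the 1 mast cell gene among the 613. The share among the 9 genes thus did not stand out from that of all genes. The log2 fold changes of HFB over CTL had a median of -0.21 over the 9 genes, beside 0.00 over all genes tested. Of the 9 genes 6 lay below 0, beside 4688 of the 9382 genes tested. Without HFB 6 and CTL 6, 8 of the 9 lay below 0, and the share of all genes was not taken there. Whether the 9 genes shift together with diet was not tested.

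The log2 fold change was -0.44 (SE 0.50) for Cpa3, -0.89 (SE 0.68) for Kit and -0.35 (SE 0.43) for Ms4a2, and edgeR's adjusted p was 0.999 for all 3. The other 6 lay between -0.35 for Gata2 (SE 0.28) and 0.16 for Cma1 (SE 0.33), with the same adjusted p. Standard errors exceeded or approached the size of the differences, so no diet difference was detectable for any of the 9 at this depth and spread. Without HFB 6 and CTL 6, a choice made after seeing the data, the value for Cpa3 was -0.46 with a smaller SE of 0.18 (unadjusted p = 0.0257, adjusted p = 0.919 in edgeR), and 431 genes passed an unadjusted p of 0.05 against 0 at the adjusted threshold. Cpa3 was then the 1 of the 9 genes at an unadjusted p under 0.05. The sign of the small differences of Tpsb2, Hdc, Cma1, Tpsab1 and Fcer1a changed with the setting or with the library left out.

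**Figure D3:**
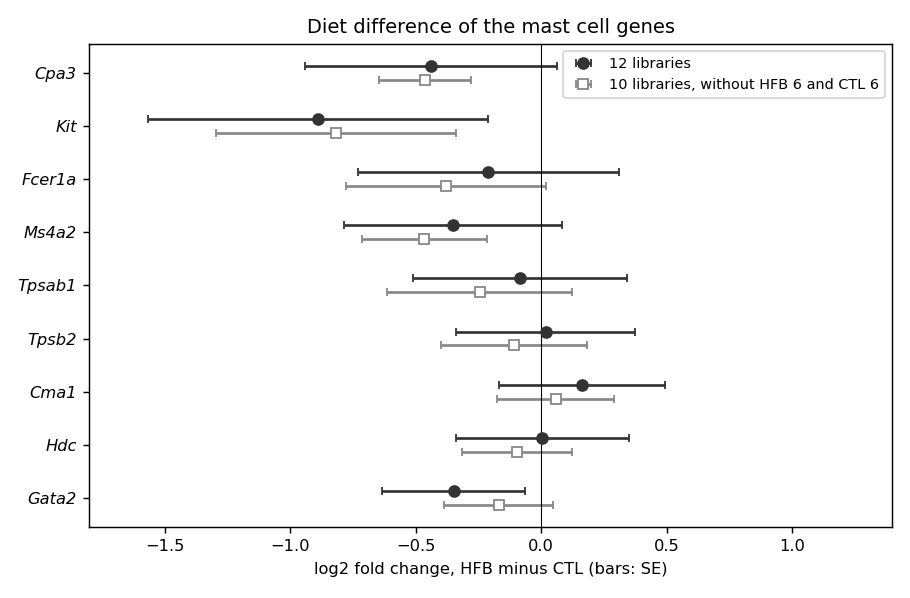
Log2 fold change of HFB over CTL for each mast cell gene, with bars of 1 SE, over 12 libraries (filled) and over 10 libraries without HFB 6 and CTL 6 (open). Most bars reach 0, and the error of Cpa3 shrinks from 0.50 to 0.18 when both libraries are left out.

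Whether the mast cell genes varied together from gland to gland was asked with Cpa3 as the index. Since HFB 6 and CTL 6 formed a pair apart, the values over the other 10 libraries come first, although this choice was made after seeing the data. Over these 10, Pearson's r with Cpa3 was 0.71 for Fcer1a (permutation p = 0.0248; rho = 0.72, p = 0.0231) and 0.70 for Tpsb2 (permutation p = 0.0252; rho = 0.56, p = 0.0965). It was 0.65 for Tpsab1 (permutation p = 0.0377; rho = 0.67, p = 0.0383) and 0.65 for Hdc (permutation p = 0.0442; rho = 0.72, p = 0.0236). All 4 had an adjusted p of 1.00 over the 9381 other genes, of which 0.0% passed the adjusted threshold and 2.23% an unadjusted p of 0.05 (209 genes). By rank of r among these 9381 genes, Fcer1a, Tpsb2, Tpsab1 and Hdc came at 46, 49, 99 and 100. The receptor chain, the tryptases and the histamine enzyme were thus among the genes more like Cpa3 by Pearson's r, although no single relation passed the adjusted threshold.

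For the other 4 genes Pearson's r over 10 libraries was lower. By rho the order differed, since Ms4a2 and Cma1 had higher values than the 0.56 of Tpsb2. Gata2 had r = 0.61 (permutation p = 0.0667; rho = 0.47, p = 0.179) and Ms4a2 had r = 0.53 (permutation p = 0.117; rho = 0.72, p = 0.0237). Cma1 had r = 0.51 (permutation p = 0.126; rho = 0.66, p = 0.0433), and Kit had r = 0.21 (permutation p = 0.560; rho = 0.42, p = 0.234). The median r of the 8 genes with Cpa3 was 0.63, beside -0.03 for all genes tested. Kit, at rank 2024, was the mast cell gene least like Cpa3.

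Over all 12 libraries 30.8% of the genes (2892) passed the adjusted threshold with Cpa3 and 50.8% (4766) an unadjusted p of 0.05, and of the 8 mast cell genes 5 and 7 did. These shares rest on HFB 6 and CTL 6, the libraries farthest from the median of Cpa3. The count of 2892 fell to 0 without either of them. It was 0 also under 2 other normalisations and without any single library except HFB 5, and the adjusted p of the called genes started at 0.0495, so all lay just under the threshold. The 10 genes most like Cpa3 over 12 libraries were Papss2, Ppic, Pttg1ip, Hibadh, Pros1, Galm, Klf14, Ccdc80, Tmem143 and Col3a1, with r from 0.94 to 0.96. All 10 had their 2 lowest values in HFB 6 and CTL 6, which picking them by r over these 12 libraries favours. Their r over the other 10 libraries ranged from 0.29 to 0.65. Papss2, which makes the sulphate donor used for heparin and other glycosaminoglycans, fell from r = 0.96 (rho = 0.78) to 0.55 (rho = 0.62). Within the diets, as a description over 6 libraries each, Gata2 had r = 0.93 with Cpa3 in HFB and 0.04 in CTL, where it was not reduced in CTL 6. Each of the other mast cell genes had the higher r in CTL. Their r ranged from 0.80 (Kit) to 0.99 (Cma1) in CTL and from 0.28 (Tpsab1) to 0.90 (Ms4a2) in HFB. The CTL values include CTL 6, where Cpa3 was 13.4 CPM against at least 117 CPM in the other CTL libraries. The HFB values include HFB 6. Within a diet, r was not computed without these libraries, so the values do not show a closer relation under either diet.

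**Figure D4:**
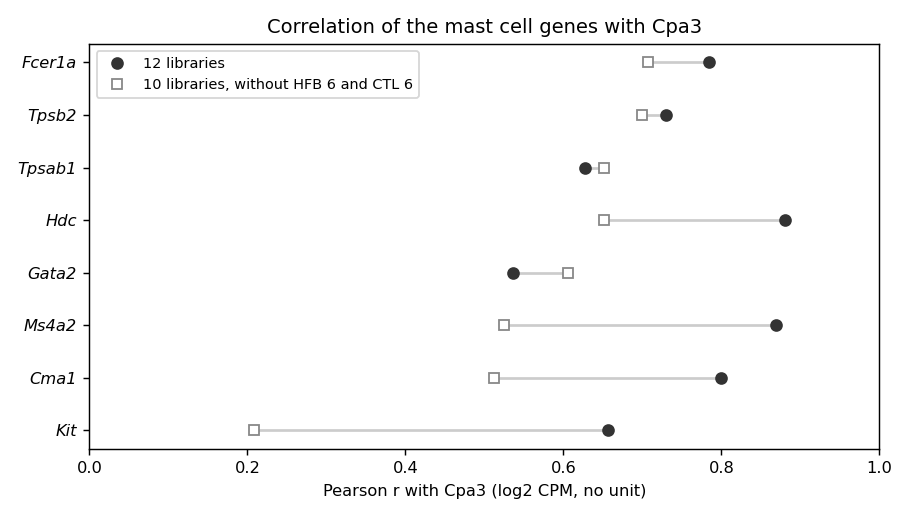
Pearson r of log2 CPM with Cpa3 for the other 8 mast cell genes over 12 libraries (filled) and over 10 libraries without HFB 6 and CTL 6 (open). Kit moves most, from 0.66 to 0.21, while Tpsab1 and Gata2 are slightly higher over 10 libraries.

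Between the 9 genes themselves there were 36 pairs, and r is given for them as a description without a test. Over 10 libraries the median r was 0.51, with 33 pairs above 0. The tryptases Tpsab1 and Tpsb2 had the highest value, 0.87, which may include shared reads. Hdc and Fcer1a followed at 0.83, and Fcer1a and Tpsb2 at 0.82. Kit had the lowest values, with a median of 0.21 to the other 8 genes and values of -0.25 with Cma1, -0.07 with Tpsab1 and -0.05 with Tpsb2. These low values depend on the libraries used, since without HFB 5 and HFB 6, also chosen after seeing the data, r with Kit was 0.54 to 0.73 for Cpa3, Fcer1a, Ms4a2, Tpsab1, Tpsb2, Cma1 and Hdc and 0.35 for Gata2. That set keeps CTL 6, which is low for Kit and the lowest library for 7 of the 9 genes.

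After its values were seen, Kit was also taken as an index, with no test. The 10 genes most like it over 12 libraries were Man2a1, Map4k5, Pdzd2, Erc1, Stxbp6, Cpd, Atl3, Ece1, Sypl1 and Septin10, with r from 0.95 to 0.98. Of these, 8 had HFB 5, HFB 6 and CTL 6 as their 3 lowest libraries, as Kit did. Picking genes by r with Kit over the same libraries favours such an overlap, so it is no separate result. Without HFB 5 and HFB 6 their r with Kit ranged from 0.83 to 0.96. None of these 10 is a gene of the mast cell granule, and what they share with Kit was not tested.

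**Figure D5:**
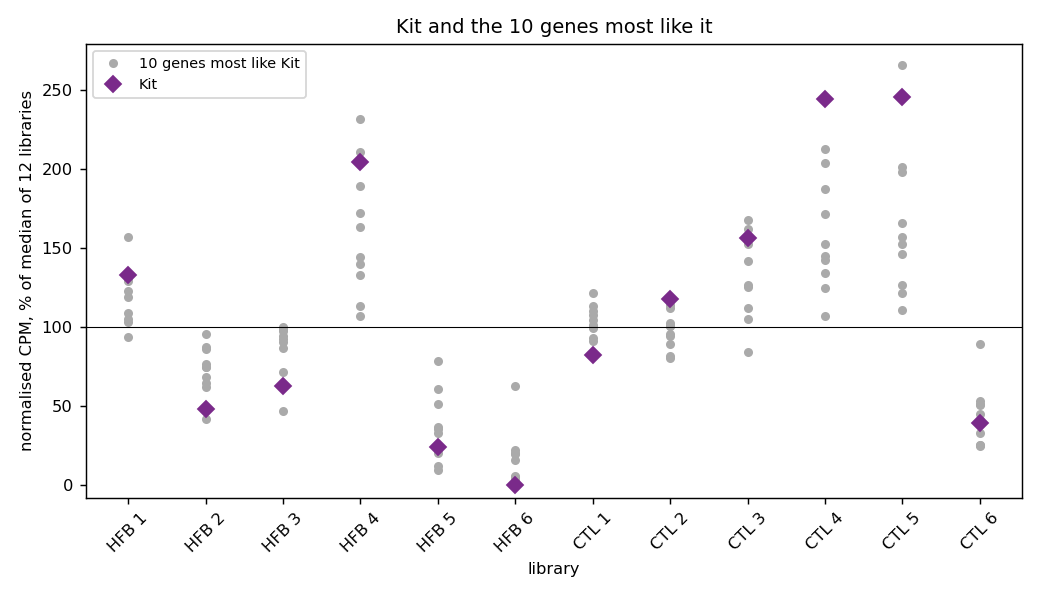
Normalised CPM of Kit (diamonds) and of the 10 genes most like it (grey), each as a percentage of its own median over the 12 libraries. Kit and 8 of the 10 genes have their 3 lowest values in HFB 5, HFB 6 and CTL 6, an overlap that picking them by r with Kit favours.

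The bases before the start sites of the genes are shown for Cpa3, Fcer1a and Cma1, since GATA factors such as Gata2 act on mast cell genes and these 3 windows hold a GATA word. The set of RefSeq windows used here held 8 of the 9 genes (assembly GRCr8, 250 bases before to 50 after the start site), with no entry for Ms4a2. The word AGATAA was searched on both strands, as were AGATAG on the one hand and TGATAA with TGATAG on the other. They occurred in 3 of the 8 windows and in 30.3% of 33469 windows of all genes, so the share among the mast cell genes is near that of all genes. CATGTG or CACGTG, an E-box of the kind bound by Mitf, occurred in 3 of the 8 (Cpa3, Fcer1a and Tpsb2) and in 19.7% of all. A match is a description of letters and no evidence of binding. The 250 bases before the start are printed 5′ to 3′ on the strand of the gene, with GATA words or their reverse complements in capitals. They lie on the minus strand at chr2:104673238-104673487 for Cpa3, chr13:88224680-88224929 for Fcer1a and chr15:33390134-33390383 for Cma1.
Cpa3: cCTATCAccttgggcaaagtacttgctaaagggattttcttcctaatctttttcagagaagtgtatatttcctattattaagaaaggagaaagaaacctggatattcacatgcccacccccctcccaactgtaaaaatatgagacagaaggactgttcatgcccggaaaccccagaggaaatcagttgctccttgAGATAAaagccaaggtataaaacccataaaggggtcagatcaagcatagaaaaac
Fcer1a: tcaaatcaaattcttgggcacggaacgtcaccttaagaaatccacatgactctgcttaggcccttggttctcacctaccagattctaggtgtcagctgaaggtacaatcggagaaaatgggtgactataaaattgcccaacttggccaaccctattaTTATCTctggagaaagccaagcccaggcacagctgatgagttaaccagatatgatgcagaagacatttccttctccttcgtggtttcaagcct
Cma1: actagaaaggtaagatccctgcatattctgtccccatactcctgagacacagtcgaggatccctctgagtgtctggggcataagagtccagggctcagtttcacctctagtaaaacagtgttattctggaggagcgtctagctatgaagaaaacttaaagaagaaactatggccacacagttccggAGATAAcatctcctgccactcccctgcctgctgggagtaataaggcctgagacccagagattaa

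Cpa3 held 2 such words, the nearer one 55 bases before the start. Fcer1a and Cma1 held 1 each, at 93 and 64 bases before it. Cpa3 and Fcer1a, at r = 0.71, and Cma1 and Fcer1a, at r = 0.61 over 10 libraries, lay above the median of all 36 pairs, while Cpa3 and Cma1, at 0.51, lay at that median. Cpa3 and Tpsb2, whose window holds no GATA word, had 0.70.

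Other genes of the mast cell were read as lists from the same fit. Of 26 genes of granule proteases and granule matrix, 19 had a row, 7 were tested and 0 passed an unadjusted p of 0.05 in edgeR or DESeq2 (1 in limma voom). Cpa1, best known as a digestive carboxypeptidase, and Ctsc, which activates granule proteases, had the highest levels of that list. The rat chymases Mcpt1, Mcpt3 and Mcpt4 were sparse, at 122, 73 and 74 counts over the 12 libraries. Mcpt1 and Mcpt3 had 0 counts in HFB 6, and Mcpt3 and Mcpt4 had counts within 2 of each other in every library. Mcpt8, Mcpt9, Mcpt10 and Gzmc had 3, 7, 6 and 5 counts in HFB 6 and 4, 8, 6 and 12 in CTL 6, against at most 3 in any other library. These 2 libraries also had the highest lymphoid sums. Whether these few counts came from mast cells or from other cells was not tested. Mcpt2 was not analysed here.

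Of 19 genes of the histamine, leukotriene and prostaglandin route, 9 were tested and 1 passed an unadjusted p of 0.05 in edgeR, as in DESeq2 and limma voom. That was Hrh3, a histamine receptor known mainly from neurons, at 16.8 to 36.7 CPM in HFB (median 23.2) and 6.74 to 33.2 CPM in CTL (median 9.15). Its log2 fold change was 0.92 (SE 0.38, adjusted p = 0.999 in edgeR), and 1 CTL library reached the HFB range. Alox5ap, which presents arachidonic acid to the leukotriene enzyme, and the cyclooxygenase Ptgs1 had the highest levels. The granule transporter Slc18a2, which loads histamine, had a log2 fold change of -0.50 (SE 0.25, adjusted p = 0.999 in edgeR). The histamine-degrading enzymes Hnmt and Aoc1 had 0 counts in all libraries.

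Of 21 genes of the IgE receptor complex and its signalling, 19 were tested and 0 passed an unadjusted p of 0.05 in edgeR or DESeq2 (1 in limma voom). The granule membrane protein Cd63 and the phospholipase Plcg1 had the highest levels. Several genes of this list are shared with lymphocytes and were high in HFB 6 and CTL 6, such as the adaptor Lat at 269 and 229 CPM against 2.37 to 49.4 CPM elsewhere. They were high where the lymphoid markers were high, while Fcer1a was lower in both libraries than the median of the others, and the part of those markers was not tested.

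Of 20 genes of stem cell factor, Kit signalling and mast cell growth, 13 were tested and 1 passed an unadjusted p of 0.05 in edgeR, as in DESeq2 and limma voom. That was Kitlg, which encodes stem cell factor, at 54.8 to 123 CPM in HFB (median 64.6) and 91.2 to 144 CPM in CTL (median 107). Of the 6 HFB libraries 5 lay under every CTL library, and the diets overlapped through HFB 4. The log2 fold change of Kitlg was -0.57 (SE 0.20, adjusted p = 0.999 in edgeR), and it was -0.58 (SE 0.20, adjusted p = 0.919) without HFB 6 and CTL 6. Its receptor Kit had the lowest log2 fold change of the 9 mast cell genes, and neither passed the adjusted threshold. Il33, an alarmin of stromal cells, and the receptor Il4r had the highest levels of the list over 12 libraries, with Kitlg in place of Il4r over the 10 without HFB 6 and CTL 6, and the cytokines Il3, Il4 and Il13 had 0 counts in all libraries, as did Mcl1 of the same list.

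Of 14 transcription factors of mast cells, 11 were tested and 2 passed an unadjusted p of 0.05 in edgeR and DESeq2 (1 in limma voom, without Cebpb). Zfpm1, a cofactor of GATA factors, had a log2 fold change of 0.47 (SE 0.17, adjusted p = 0.999 in edgeR), with 14.6 to 22.9 CPM in HFB and 10.4 to 14.2 CPM in CTL. Cebpb had 0.55 (SE 0.24, adjusted p = 0.999 in edgeR), with 80.5 to 193 CPM in HFB and 51.2 to 110 CPM in CTL. Cebpa, the fat and myeloid factor with the highest level, was 3.21 CPM in HFB 6 and 17.3 CPM in CTL 6 against 127 to 231 CPM elsewhere. Mitf, which mast cells need for their development, was 2.82 to 7.22 CPM over the 12 libraries. Of 22 surface receptors and vesicle genes of mast cells, 5 were tested and 0 passed an unadjusted p of 0.05 in edgeR or DESeq2 (1 in limma voom, Rab27a). The prostaglandin receptor Ptger3 and Rab27a, a GTPase of granule transport inside the cell, were highest. Over all genes tested the share at an unadjusted p of 0.05 was 2.34%, and 0 genes of any of these lists passed the adjusted threshold.

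Markers of cells that share genes with mast cells were read beside them. Of 9 basophil and eosinophil markers 6 had a row. Prg3 had 0 counts, Ccr3 and Il5ra had 2 counts each and Epx had 26 over all libraries, of which 9 lay in HFB 6 (3.61 CPM). Prg2 reached 8.42 and 8.80 CPM in HFB 6 and CTL 6 against at most 4.52 CPM elsewhere. Alox15 made up nearly all of the summed CPM of that list and is made by other cells too. Of 8 markers of melanocytes and interstitial cells of Cajal 7 had a row. Tyr and Tyrp1 had 0 counts and Mlana had 3, while Etv1 and Ano1 led the list. Of the 2 lists, 0 of 1 and 0 of 4 tested genes passed an unadjusted p of 0.05 in edgeR or DESeq2 (0 and 1 in limma voom). Kit was at 0 counts in HFB 6, where the summed CPM of the melanocyte and Cajal list was 128 and the highest of all libraries. Of that sum Pmel gave 57.7 CPM, against 1.11 to 7.71 CPM in the 10 libraries without HFB 6 and CTL 6. Sox10 and the Cajal marker Ano1, at 30.1 and 26.1 CPM, lay slightly above the highest of those 10 (28.5 and 25.7 CPM), while Etv1 was 14.03 CPM against a median of 23.1 CPM.

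In the remaining marker lists 0 genes passed the adjusted threshold between the diets, and the unadjusted threshold was passed by C1qb and C1qc among 9 macrophage genes tested and by 0 of the tested blood endothelial (7), lymphatic endothelial (3), lymphoid (6), adipocyte (10), stroma (10), epithelial (10), skeletal muscle (9), red blood cell (7) and peripheral nerve (7) genes in edgeR. DESeq2 passed 3 macrophage genes and 1 nerve gene, where 2.89% of all genes passed. Limma voom passed 5 epithelial, 3 stroma, 1 macrophage and 1 lymphatic gene, where 6.53% of all genes passed. By sign, 4694 of all genes tested had a log2 fold change above 0 and 4688 had one below 0 over 12 libraries. The signs of all genes were not counted over 10 libraries. All 10 epithelial genes had a log2 fold change below 0 and all 7 red blood cell genes had one above 0, with and without HFB 6 and CTL 6. Of the 10 stroma genes 9 lay below 0 in both settings. All 7 nerve genes lay below 0 over 12 libraries and 5 did over 10. All 9 muscle genes lay above 0 over 12 libraries and 4 did over 10, and all 6 lymphoid genes did over 12, with only 3 left to test over 10. C1qb had a log2 fold change of 0.59 (SE 0.20) and C1qc of 0.36 (SE 0.16), both with an adjusted p of 0.999 in edgeR. Without HFB 6 and CTL 6, where 4.59% of all genes passed an unadjusted p of 0.05 in edgeR and 0 the adjusted one, C1qc no longer passed it. Syk and Vav1 of the IgE receptor list, Pik3cd of the Kit list, Lum and Pdgfra of stroma, Reln of lymphatic vessels and Ptprc of lymphoid cells then did. Hrh3, Kitlg, Zfpm1, Cebpb and C1qb passed it in both settings. The leading genes not named above were Lyz2 and C1qa for macrophages, Lyve1 and Pdpn for lymphatic vessels, Krt8 and Krt18 for epithelium (Krt8 and Epcam without HFB 6 and CTL 6), Acta1 and Ckm for muscle, Hba-a1 and Hbb for red cells and S100b and Pmp22 for nerve. The part of these cell types in the values of the mast cell genes was not tested.

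A ratio was looked at after the values were seen, as 1 of 36 possible ratios between the 9 genes. The count of Cpa3 over that of Cma1 was 0.762 to 0.916 in CTL 1 to 5 and 0.286 in CTL 6, and ranged from 0.155 in HFB 6 to 0.842 in HFB 1. HFB 1 lay within the range of CTL 1 to 5 and the other HFB libraries lay under it, HFB 2 only just, at 0.749. On the log2 scale the mean was -1.11 in HFB (SD 0.87) and -0.56 in CTL (SD 0.62), a difference of -0.54 (two-sided exact permutation test, p = 0.258). Without HFB 6 and CTL 6 the difference was -0.48 (SD 0.44 in HFB and 0.11 in CTL; two-sided exact permutation test, p = 0.0873). The exact tests thus did not separate the diets at p under 0.05. Whether the narrow range in CTL 1 to 5 differs from counting error or from other ratios was not tested.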

How the data were processed

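The authors deposited raw counts of reads per gene without normalization, 1 column per library, for 16511 genes of 12 glands (6 HFB, 6 CTL). The submitters' processing notes name bcl2fastq, CASAVA 1.8, TopHat, DESeq and the rn4 build with no role. The counting program, annotation and use of strand are not given in the sources used here, so reads of close copies or antisense genes could have been split, lost or mixed. Symbols came from the RefSeq table of GRCr8 by Entrez identifier (16351 of 16511 genes). 2954 genes had 0 counts in all libraries.

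Diets were compared with edgeR 4.0.16 (quasi-likelihood test under R 4.3.3, TMM, filterByExpr by diet, Benjamini-Hochberg over 9382 genes, threshold 0.05). Likeness to Cpa3 was measured in Python 3.11.15 with numpy 2.4.6 as Pearson and Spearman correlations of log2 CPM (prior count 2), with two-sided permutation tests of 100000 resamples adjusted over 9381 genes. Both procedures were first tested on simulated data. Ratios used the exact permutation test of scipy 1.17.1. Alternatives were RLE and upper quartile scaling, no filter, a filter of 10 or more counts per library throughout, DESeq2 1.42.0, limma 3.58.1 (voom with quality weights), a prior count of 0.5, scaling by library total, centring on each diet and leaving out each library in turn. Leaving out HFB 6 and CTL 6, or HFB 5 and HFB 6, Kit as index and the ratio of Cpa3 to Cma1 were chosen after seeing the data. Total counts were 2320267 to 2944680. Each gland came from its own litter, so the libraries are separate animals.

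The 9 genes and the gene lists were chosen with earlier results of these data known. Beside the 9, the text names the 10 genes with the highest Pearson r with Cpa3 over 12 libraries, and of each list the 2 with the highest median CPM and any at an unadjusted p under 0.05 in edgeR. Genes named outside that rule, such as Slc18a2, Mitf, Lat and the Mcpt genes, were chosen after their values were seen. The lists cover granule proteases and matrix, the histamine, leukotriene and prostaglandin route, IgE receptor signalling, stem cell factor and Kit signalling, transcription factors, surface receptors with vesicle genes and 12 sets of cell type markers. Promoter windows were RefSeq sequences of GRCr8.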

Additional observations from a re-analysis of the deposited data

Results flagged for a closer look

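Of 44 groups of 6 libraries examined (the 9 genes, the total counts and 12 marker lists, in each diet), 11 had a library past the 5% point of Dixon's test for 6 values, where chance gives about 1 group in 20. Among the mast cell genes these were Cpa3 in CTL 6, at 13.4 CPM against 117 CPM in the next CTL library, and Cma1 in HFB 5, at 330 CPM against 179 CPM. Total counts were lowest in HFB 1 (2320267) among the HFB libraries and highest in CTL 1 (2944680) among the CTL libraries.

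Among the summed marker lists, blood endothelial markers stood apart in HFB 6 (969 CPM against 358) and in CTL 6 (907 against 382). In CTL 6 the lymphoid sum was 1415 CPM against 123, and the adipocyte sum was 17446 CPM against 33110. The sum of basophil and eosinophil markers was 1406 CPM in HFB 2 against 327, nearly all of it Alox15. Red blood cell markers summed to 108356 CPM in HFB 2 against 38388, and to 67223 CPM in CTL 3 against 17786. The part of these cell types in the mast cell gene values was not tested.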

How the results depend on the processing

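No gene passed the adjusted threshold between the diets under edgeR or any of 19 alternatives, DESeq2 and limma voom included, and Cpa3, Kit, Ms4a2 and Gata2 kept a negative log2 fold change under each alternative that gave them a value. Kit and Ms4a2 were filtered out, and so had none, with at least 10 counts in every library. The size of these 4 values moved. With 1 library left out it ran from -0.67 to -0.23 for Cpa3 and -1.45 to -0.63 for Kit. For Ms4a2 it ran from -0.57 to -0.056, and for Gata2 from -0.51 to -0.17. Without HFB 5 and HFB 6 it was -0.38 for Kit. The count at an unadjusted p under 0.05, 220 as reported, was 613 in limma voom, 431 without HFB 6 and CTL 6 (chosen after seeing the data), and 135 (without HFB 5) to 587 (without CTL 6) over single libraries left out. Small differences changed sign, and the cause was not tested. Under upper quartile scaling the log2 fold change was -0.014 for Tpsb2 and -0.024 for Hdc, and with at least 10 counts in every library -0.0091 for Hdc. In limma voom it was -0.27 for Tpsb2, -0.15 for Cma1 and -0.11 for Hdc. Without HFB 6 and CTL 6 it was -0.11 for Tpsb2 and -0.096 for Hdc, and without HFB 5 and HFB 6, also chosen after seeing the data, -0.12 for Tpsb2 and -0.063 for Cma1. With 1 library left out it ran from -0.45 to 0.084 for Fcer1a, -0.37 to 0.10 for Tpsab1, -0.15 to 0.22 for Tpsb2, -0.11 to 0.28 for Cma1 and -0.19 to 0.19 for Hdc. The count of genes following Cpa3, 2892 as reported, was 0 with DESeq2 size factors, 0 with library totals, 0 without HFB 6 and CTL 6 and 0 to 4431 with 1 library left out (4431 without HFB 5, 0 otherwise), and it was 2870 with a prior count of 0.5 and 3421 after centring on each diet. At an unadjusted permutation p under 0.05 the counts were 4766 as reported, 4755 with DESeq2 size factors, 4615 with library totals, 1594 without HFB 6, 1914 without CTL 6, 209 without both and 4420 to 5241 without any other library. Each r of a mast cell gene with Cpa3 stayed positive in all settings. At 2320267 to 2944680 counts per library, Kit and Fcer1a had 282 and 146 counts in all, and the parts of depth and of spread between glands in their standard errors were not tested. No paired analysis was possible because the replicate numbers only name libraries.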
